A study of Mus musculus with 2 samples.

Results

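The genes described here encode chromatin remodelers: the CHD proteins, the subunits of the SWI/SNF (BAF) complexes, the ARID proteins and the relatives of these families in the ISWI, INO80, SRCAP and p400 complexes. They were chosen by name, as every gene on the array called Chd, Smarc, Arid or Ino80 together with Pbrm1, Brd7, Brd9, Srcap, Ep400, Atrx, Btaf1 and Hells, with no threshold on the difference between the arrays. The choice gave 46 genes of the 25851 that had a probe well above background on at least 1 array, and all 46 were well above background on both arrays. The study hybridised 2 one-colour Agilent arrays, 1 for EpiSC and 1 for ELA-EpiSC, both from the mouse embryonic stem (ES) cell line E14Tg2A of strain 129/Ola. EpiSC are epiblast-like stem cells obtained by growing ES cells directly in minimal medium with FGF2 at 12 ng/mL and Activin A at 20 ng/mL. ELA-EpiSC were obtained in the same medium, with the same agents at the same doses, from epiblast-like aggregates (ELA), which ES cells form on the way to neural tissue. Each array held RNA pooled from 3 experiments, so the spread between cultures was lost in the pool and the differences below have no replicate check and no p-value.

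Chromatin remodelers use ATP to slide, eject or rebuild nucleosomes, and so set how open the DNA is to transcription factors. The ATPase of a complex (Smarca4 or Smarca2 in SWI/SNF, Chd4 and its close relatives in NuRD, Smarca5 or Smarca1 in ISWI, Ino80, Srcap and Ep400 in their own complexes) supplies the motor, and the other subunits direct where the complex binds and what it does there. ES cells carry a special SWI/SNF form, esBAF, built on Smarca4, Smarcc1 and Arid1a. They need esBAF to keep pluripotency, and esBAF and NuRD to leave it in an orderly way.

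Levels are given as log2 of the normalized signal of the brightest detected probe of a gene, and differences as the log2 level in ELA-EpiSC minus that in EpiSC. A gene was counted as higher or lower where the difference was at least 1 on the log2 scale and its mean log2 level was at least 7.5, and 44 of the 46 genes met that level, the exceptions being Srcap and Smarcd3. As a yardstick for spot noise, 312 probes printed 10 times gave an SD of 0.10 for the difference of a single pair of spots, which covers neither the labelling nor the cultures. Levels of different genes come from different probes and were not set against each other. The arrays were alike in brightness, with a median spot signal of 71.7 for EpiSC and 79.1 for ELA-EpiSC, and with 65.9% and 65.0% of probes above background. The source label of the EpiSC array names an Argonaute immunoprecipitate and that of the ELA-EpiSC array total RNA, while the titles, the descriptions and the molecule given for both arrays fit total RNA of the cultures. Of the 5 nuclear RNAs that were looked at for this reason, Malat1 differed by 0.03, Kcnq1ot1 by 0.08 and Meg3 by -0.11, Neat1 was higher in ELA-EpiSC by 1.39 and Airn lower with a difference of -2.01. Whether the source label bears on any difference was not tested. The core pluripotency genes were well above background on both arrays, with differences of 0.19 for Pou5f1, -0.27 for Sox2 and 0.32 for Nanog, as were the primed-state genes Fgf5, Otx2 and Dnmt3b, with differences of 0.16, 0.00 and -0.84.

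Most remodeler genes had a small difference above 0, and few differed much. The median difference over the 46 genes was 0.17, beside -0.01 over all 25851 genes. Of the 44 genes at the counted level, 34 (77.3%) had a difference above 0, against 50.2% of all 16649 genes at that level. Over the scalings and other settings 30 to 42 of the 46 genes were above 0, but the share of all genes was not counted there. The 42 came from spike-in scaling, where the median of all genes at the counted level was itself 0.54. Past a difference of 1, Chd5 and Arid5a were higher in ELA-EpiSC, 4.55% of the 44 genes beside 4.54% of all genes. In the other direction only Arid3c passed, 2.27% beside 4.46% of all genes. The shares of remodelers past 1 were thus near or below the background. At a difference of at least 0.5, 8 genes (18.2%) were higher, beside 13.6% of all genes, and 4 (9.09%) were lower, beside 13.7%. The middle of the distribution lay to the right of that of all genes, with quartiles of 0.01 and 0.44 beside -0.28 and 0.27, and 34 of the 46 genes stayed within 0.5 either way. Measured against the spot noise, 28 genes had a difference above 1 SD, 8 a difference below -1 SD, and 10 of the 46 lay within it. Of all 25851 genes 7063 lay within it, and of the 16649 genes at the counted level 3381. Lying past 1 SD was thus common among all genes, and their split by direction was not counted.

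The scaling of the arrays moved how many genes passed, and the share of all genes past 1 was counted under the main setting only. When the arrays were scaled on 8 detected spike-in RNAs, 0.54 was added to every difference, the remodeler median became 0.71 and the median of the 16649 genes at the counted level 0.54, and the counts past 1 became 10 higher and 0 lower. When the arrays were scaled to equal medians, the median of all genes at the counted level under that scaling was 0.15, and the counts became 4 and 0. The lost gene there was Arid3c, which kept a difference of -1.28 but had a mean level of 7.47, below the counted 7.5. The distance between the remodeler median and the median of all genes at the counted level moved less, from 0.15 to 0.22 over the main setting and 13 alternatives. Several alternatives could hardly move it, however. Spike-in scaling added the same amount to every gene. Requiring detection on both arrays and dropping the detection filter left every remodeler at its main value. The 75th percentile after normexp and median scaling differ by a constant, and both gave 0.22. With the median of all genes moving between scalings, differences of under about 0.5 carry at most a direction relative to the other genes and not an absolute one. For the smallest differences the relative direction could move too. Smarca4 was at 0.05 beside a median of all genes of 0.00 in the main setting. With the 75th percentile after normexp it was at -0.21 beside -0.07.

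**Figure D1:**
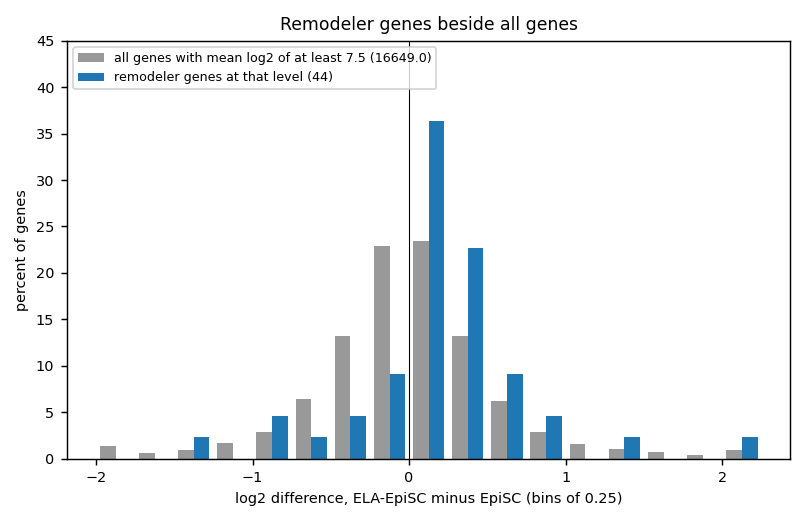
Share of genes (percent, vertical axis) in bins of 0.25 of the log2 difference, ELA-EpiSC minus EpiSC (horizontal axis), for the 44 remodeler genes (blue) and all genes (grey) with a mean log2 level of at least 7.5, with values past either end counted in the end bins. The bin from 0 to 0.25 held 36.4% of the remodeler genes and 23.4% of all genes.

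The CHD family, whose proteins carry a pair of chromodomains beside the ATPase, lay highest among the classes of more than 2 genes. Its median difference was 0.45, and 8 of its 9 genes had a difference above 0 under the main setting, beside 50.2% of all genes, the exception being Chd8, whose small difference had the other sign under median scaling, cyclic loess and spike-in scaling. Only Chd5 passed 1, and Chd1 and Chd8 lay within the spot noise. The family median stayed at or above 0.3 under all 13 alternatives. Chd3, Chd4 and Chd5 are paralogs that stand in for one another as the ATPase of NuRD. Their probes are shown because the difference of Chd5 was larger than those of Chd3 and Chd4. The bases are the first 30 of each 60-base probe, read 5′ to 3′ from the array files, with the position of the whole probe in the mouse build mm9.
Chd3 (chr11:69156778-69156837, minus strand): ctgtcccaatcccttcttctgtatcaggtt
Chd4 (chr6:125080458-125080517, plus strand): gcatctttttaataccaggaacccagcggc
Chd5 (chr4:151764244-151764303, plus strand): gtgtgtatgttttggtttctgtgttttaat
Which exon or untranslated region each probe falls in was not analysed here. No probe of a remodeler gene shared a stretch of 20 bases with a probe of another named gene.

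Chd5, the NuRD-type CHD protein best known from neurons and the testis, had a log2 level of 8.22 in EpiSC and 10.23 in ELA-EpiSC. It was higher in ELA-EpiSC by 2.02, a 4.04-fold difference, and 145 of all genes at the counted level had a larger one. Over the alternatives the difference ran from 1.99 to 2.55. It rests on the 1 probe that the array has for the gene. Chd4, the main NuRD ATPase of ES cells, had a level of 15.11 in EpiSC and 15.52 in ELA-EpiSC, giving a difference of 0.41. That value did not pass 1 under any alternative, where it ran from 0.13 to 0.94. Chd3 lay close to Chd4 in its difference, at 0.45, with levels of 12.85 and 13.31. The difference of Chd5 thus exceeded those of the other two by many times the spot SD, and the latter were within 1 spot SD of each other.

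Chd6, Chd7, Chd8 and Chd9 form the subfamily that includes the CHARGE syndrome gene Chd7. Chd7 had levels of 13.55 in EpiSC and 13.96 in ELA-EpiSC, giving a difference of 0.41. Chd9 had levels of 10.66 and 11.20, a difference of 0.53. Chd6 had levels of 9.50 and 9.97, a difference of 0.46, but its 3 detected probes ran from -0.10 to 0.46. Chd8, which represses beta-catenin targets, stood apart from them at 13.55 and 13.53, a difference of -0.01. In the subfamily of Chd1 and Chd2, Chd1, which binds the histone mark of active promoters, had levels of 9.03 and 9.098, a difference of 0.07. Chd2 had levels of 10.56 and 11.02, a difference of 0.46, with its 3 detected probes between 0.08 and 0.46. Under the main setting Chd2, Chd3, Chd4, Chd6 and Chd7, which belong to different subfamilies, thus lay between 0.41 and 0.46, about 4 times the spot SD. They lay farther apart under some alternatives. With the processed signal they ran from 0.13 for Chd4 to 0.51 for Chd2. The mean over probes gave 0.23 for Chd2 and 0.27 for Chd6.

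**Figure D2:**
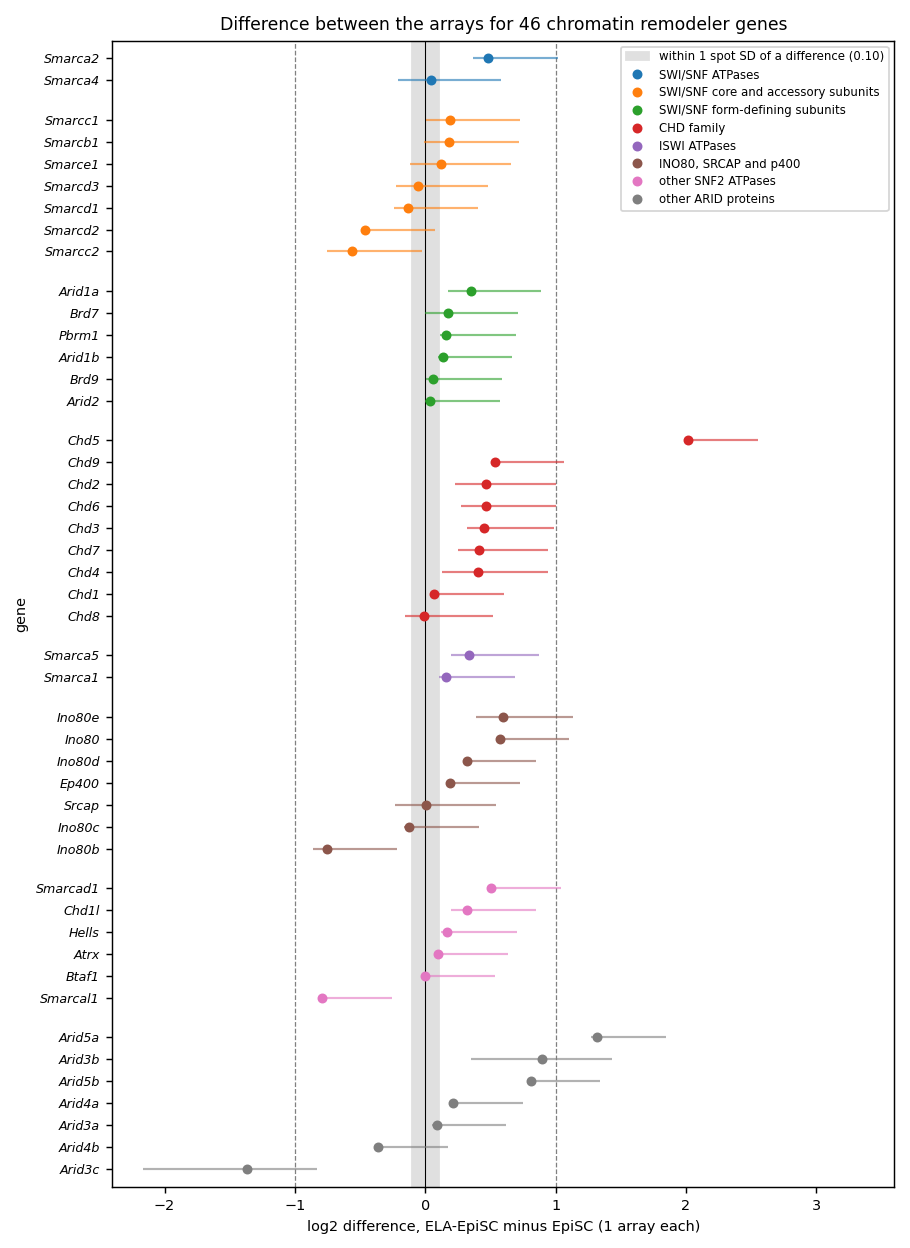
Log2 difference, ELA-EpiSC minus EpiSC (horizontal axis), of each of the 46 remodeler genes (vertical axis, grouped and coloured by class), with points for the main setting, lines for the range over 13 alternatives, a grey band for 1 SD of spot noise (0.10) either side of 0 and dashed lines at 1 and -1. Chd5 at 2.02 and Arid5a at 1.31 lie to the right of the line at 1 with their whole range, and Arid3c at -1.37 lies farthest left.

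The SWI/SNF complexes, with 15 genes, had a median difference of 0.12, and none passed 1 in either direction. The alternative ATPases of the complex had unequal differences. Smarca4 (BRG1), the ATPase of esBAF, had a level of 15.51 in EpiSC and 15.55 in ELA-EpiSC, giving a difference of 0.05 that lay within the spot noise and had the other sign in 3 of 13 alternatives. Its second probe gave -0.18. Smarca2 (BRM), which takes the place of Smarca4 in many differentiated cells, had levels of 7.38 and 7.87, a difference of 0.48, from a dim probe. The probes of Smarca4 are shown because the near-zero difference is that of the brightest probe alone and the second lay below 0 by more than 1 spot SD.
Smarca4, brightest probe (chr9:21507751-21507810, plus strand): ccagcgggtatgtcagtgtcactggagtca
Smarca4, second probe (chr9:21483531-21483590, plus strand): ttctcgccaccgcaaggaggtagactacag
Both sequences were read from the array files in mm9 as above, 30 of 60 bases each.

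Among the core and accessory subunits the paralogs also parted. Smarcc1 (BAF155), the scaffold found in esBAF, had levels of 13.29 in EpiSC and 13.48 in ELA-EpiSC, giving a difference of 0.19, though its 4 detected probes ran from -0.20 to 0.19. Smarcc2 (BAF170), the scaffold that joins the complex as cells differentiate, had levels of 8.27 and 7.71, a difference of -0.56 from 1 probe that ran from -0.75 to -0.03 over the alternatives, the last with spike-in scaling and within the spot noise. Of the BAF60 subunits, which link the complex to transcription factors, Smarcd2 had levels of 11.18 and 10.72, a difference of -0.46, while its second probe gave -0.02. Smarcd1 had levels of 9.98 and 9.85, a difference of -0.13, and Smarcd3, the form known from heart and neurons, had levels of 7.21 and 7.15, a difference of -0.06. Spike-in scaling turned all 3 BAF60 differences above 0, median scaling turned those of Smarcd1 and Smarcd3, and the median pixel signal and the deposited log2 values turned that of Smarcd3. The core subunits Smarcb1 and Smarce1 differed by 0.19 and 0.12, both turned below 0 by the processed signal, at -0.01 and -0.12. The median over these 7 genes was -0.06 and below 0 in 9 of 13 alternatives, and it was above 0 under median scaling, spike-in scaling, the median pixel signal and the deposited log2 values.

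The 6 subunits that tell the forms of SWI/SNF apart had differences of 0.04 to 0.35 on their brightest probes, none past 1 and 2 of them within the spot noise, and a median of 0.15, though the processed signal turned Brd7 and the mean over probes turned Arid2 below 0. Arid1a, the DNA-binding subunit of esBAF and a frequent loss in tumours, had levels of 13.72 in EpiSC and 14.07 in ELA-EpiSC, giving a difference of 0.35 on its brightest probe and of 0.46 on the other. Its paralog Arid1b, which takes the same place in the complex, had levels of 11.55 and 11.68, a difference of 0.13. Of the subunits of the PBAF form, Pbrm1 differed by 0.16 and Arid2 by 0.04, with a second detected probe at -0.05. Brd7, a bromodomain protein of PBAF, had levels of 14.30 and 14.47, a difference of 0.17 on its brightest probe and of -0.10 on the other. Brd9, its relative in the non-canonical form, had levels of 10.39 and 10.44, a difference of 0.06.

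**Figure D3:**
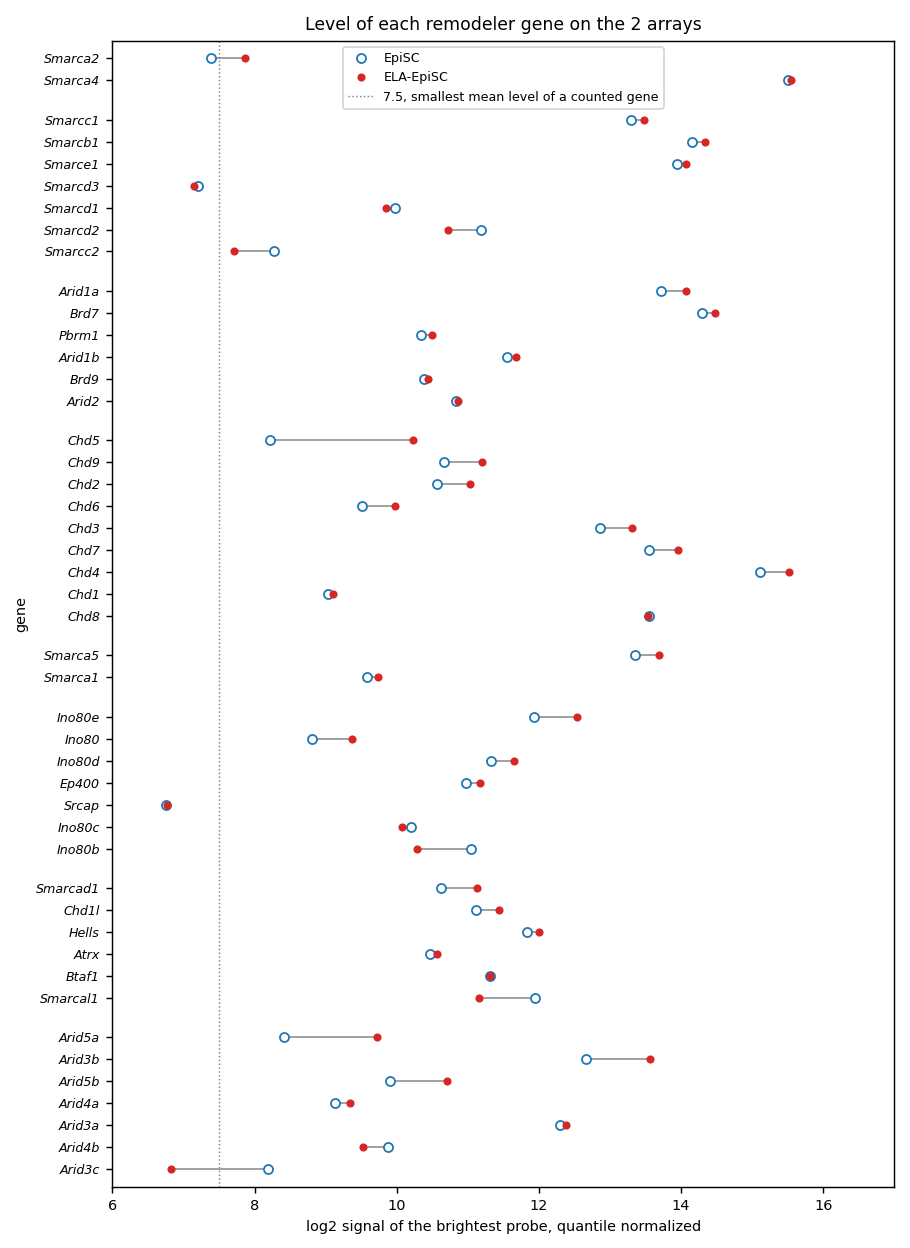
Log2 level of the brightest detected probe (horizontal axis, quantile normalized signal) of each remodeler gene (vertical axis, in the order of the plot of differences) in EpiSC (open blue circles) and ELA-EpiSC (filled red circles), with a dotted line at 7.5, the smallest mean level of a counted gene. Chd5, Arid5a and Arid3c have the widest gaps, and the circles of Smarca4, Chd8, Btaf1 and Srcap nearly coincide.

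The ISWI ATPases, which space nucleosomes evenly, both stayed within 1. Smarca5 had levels of 13.35 in EpiSC and 13.69 in ELA-EpiSC, giving a difference of 0.34. Smarca1, the form best known from the brain, had levels of 9.58 and 9.73, a difference of 0.16, with a second detected probe at 0.06. In the INO80, SRCAP and p400 group, which exchanges or evicts the variant H2A.Z, the members diverged. The ATPase Ino80 itself had levels of 8.81 and 9.38, a difference of 0.57, and its second probe gave 0.85. The subunit Ino80e had levels of 11.94 and 12.54, a difference of 0.60, with a second detected probe at 0.18. In the other direction the subunit Ino80b had levels of 11.04 and 10.29, a difference of -0.75 from 1 probe that ran from -0.86 to -0.22 over the alternatives. Ino80d differed by 0.32, the ATPase Ep400 by 0.19, Srcap by 0.01 and Ino80c by -0.13, the last at levels of 10.20 and 10.07. Genes of one complex thus lay on both sides of 0 by several times the spot SD.

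Of the other SNF2-type ATPases, Smarcal1, which rewinds DNA at stalled replication forks, was the lowest. Its levels were 11.94 in EpiSC and 11.15 in ELA-EpiSC, giving a difference of -0.79, and its other probes gave -0.43 and -0.09. Smarcad1, which acts in DNA repair and in restoring silent chromatin after replication, had levels of 10.62 and 11.13, a difference of 0.51. Chd1l, a remodeler recruited by poly(ADP-ribose) at DNA damage, differed by 0.32. Hells, which is needed for DNA methylation at repeats, differed by 0.17 and Atrx, which deposits H3.3 at heterochromatin, by 0.10. Btaf1, which removes TBP from promoters, showed a difference of -0.0008, the smallest of the 46 genes.

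The ARID proteins outside SWI/SNF spread the most, from -1.37 to 1.31, with a median of 0.21. Arid5a, a DNA-binding protein that also stabilises inflammatory mRNAs, had levels of 8.41 in EpiSC and 9.73 in ELA-EpiSC. It was higher by 1.31, between 1.28 and 1.85 over the alternatives. Its paralog Arid5b, which works with the demethylase Phf2, had levels of 9.90 and 10.71, a difference of 0.81. Arid3c had levels of 8.19 and 6.82, a difference of -1.37 that ran from -2.17 to -0.83. Its mean level of 7.51 lay just above the smallest counted level, so that it was no longer counted under 6 settings that put the mean below 7.5, and spike-in scaling brought its difference within 1. Arid3b, of the same Bright family, lay the other way, with levels of 12.67 and 13.56, a difference of 0.90. The third paralog Arid3a differed by 0.09, on both of its probes by 0.09 to 0.10. Arid4b had levels of 9.88 and 9.52, a difference of -0.36 that spike-in scaling turned above 0, with a second probe at 0.05, and Arid4a, its partner in the Sin3 deacetylase complex, differed by 0.21. The probes of the genes past 1, and all of Arid3b, are shown because each of the former is the only probe of its gene and those of the latter disagree.
Arid5a (chr1:36377312-36377371, plus strand): ctcaaggcatccaggttggccatgaaagac
Arid3c (chr4:41671738-41671797, minus strand): gcaggcagtggcatcagcagtatcaacgtg
Arid3b, brightest probe (chr9:57638549-57638608, minus strand): gacccttcctacccaggggtgacagggaca
Arid3b, second probe (chr9:57640491-57642800, minus strand): acaagcaacattgggagcatcaatatgtct
Arid3b, widest-spanning probe (chr9:57646030-57658028, minus strand): gtgatcctgaaaggaaagaatttctggatg
These are again the first 30 of 60 bases, read from the array files in mm9. The second and the widest-spanning Arid3b probes cover 2310 and 11999 bases of the genome with 60 bases, so each joins sequence from separate stretches of it. They were dim, at 7.05 and 6.52 in EpiSC, and differed by 0.01 and 0.13, beside 0.90 for the brightest probe. With their mean the difference of Arid3b was 0.35.

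Several probes of a gene give a check within the array that single probes lack. Of the 46 genes, 21 had more than 1 probe detected on both arrays, and in 13 of them all these probes had the same sign. The widest disagreement was that of Arid3b, with a range of 0.89, followed by Smarcal1 with 0.70 and Chd6 with 0.57. The probes of Ino80 and Arid1a all gave a difference of at least 0.35. The other 25 genes, among them Chd4, Chd5, Arid5a, Arid3c, Smarcc2 and Ino80b, rest on 1 detected probe.

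**Figure D4:**
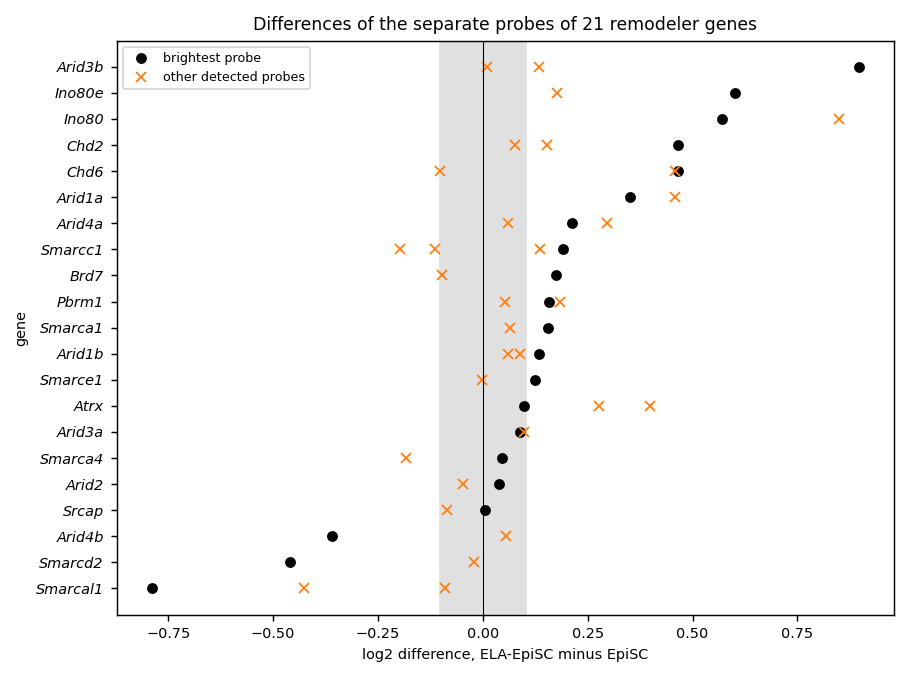
Log2 difference, ELA-EpiSC minus EpiSC (horizontal axis), of every probe detected on both arrays for the 21 remodeler genes with more than 1 such probe (vertical axis), with the brightest probe as a black point, the others as orange crosses and 1 SD of spot noise as a grey band. The crosses of Arid3b at 0.01 and 0.13 lie far from its point at 0.90, while both probes of Ino80, at 0.57 and 0.85, lie well to the right of the band.

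The genes that work with these remodelers were taken from lists of complex members, described by the same counts. The 12 NuRD partners included deacetylases, MTA, MBD and histone-binding subunits that join Chd3, Chd4 or Chd5. Of these 12, 11 had a difference above 0 on the brightest probe under the main setting, beside 50.2% of all genes. The median was 0.19 and 3 of the 12 lay within the spot noise, though Hdac1, Mbd3, Gatad2a, Rbbp4 and Cdk2ap1 were below 0 under some scalings. None passed 1, and the MTA subunit Mta3 reached 0.53, with other probes at 0.74 and 0.15. The histone-binding Rbbp7 differed by 0.41 and the deacetylase Hdac2, the exception, by -0.22. Another detected probe lay below 0 for Hdac1 (-0.03), Mbd2 (-0.23), Mbd3 (-0.38), Gatad2a (-0.22), Rbbp4 (-0.21) and Cdk2ap1 (-0.17). The other probes of Mta3 and Rbbp7 lay above 0, as did a further probe of Hdac1 and of Gatad2a. Of 15 BAF partners 14 were detected, with a median of 0.09, and Bcl11b passed 1, with levels of 7.54 and 8.70 and a difference of 1.17 on its brightest probe and 1.16 on the other. Ss18, the subunit fused in synovial sarcoma, differed by 0.83, Gltscr1l of the non-canonical form by 0.71 and Dpf2 by 0.62. Of the list's subunits known from the neuronal form, Actl6b did not reach the background limit on either array. Dpf1 differed by 0.04 with a second probe at -0.36, Ss18l1 by -0.05 and Dpf3, at 7.86 and 6.86, by -0.9997. The mean level of Dpf3 lay below 7.5, so it was not counted, and its difference ran from -1.79 to -0.46 over the scalings.

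Among 10 ISWI partners, with a median of 0.16, only Baz1a passed 0.5. This partner of Smarca5 in the ACF complex had levels of 11.32 in EpiSC and 13.27 in ELA-EpiSC, giving a difference of 1.95, and its other probes gave 1.92 and 1.49. Its difference was thus several times that of Smarca5 itself at 0.34. The 21 partners in the INO80, SRCAP and p400 complexes had a median of 0.00 and none past 1. There Epc1 differed by 0.52 on its brightest probe, while its other probes gave 0.03 and -0.57, and the H2A.Z exchange subunits Actr6 and Yeats4 by -0.66 and -0.51, the last turned above 0 by spike-in scaling. The 9 further SNF2 ATPases had a median of -0.00, with Shprh at 0.51 on its brightest probe and 0.00 on a dim second one, and Ercc6l, a mitotic helicase, at -0.63.

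Chd5 and Bcl11b are expressed in neural cells, so the neural markers are set beside them. Of 7 such genes 6 were well above background on both arrays, at log2 levels of 8.05 to 13.06 in EpiSC and 7.37 to 15.24 in ELA-EpiSC, and Pax6 was not on either. Nefl was higher in ELA-EpiSC by 2.18 and Nes by 2.11, while Tubb3 differed by 0.72, Map2 by 0.60, Sox1 by -0.09 and Elavl3 by -0.68. Their part in the differences of Chd5 and Bcl11b was not tested. In pooled bulk RNA, more cells that express a gene and more RNA per cell cannot be told apart.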

How the data were processed

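Total RNA of the 2 cultures was hybridised to Agilent one-colour arrays. The authors deposited scanner files with spot intensity and spot flags, a score per spot for background, saturation and uniformity, and a table of log2 values, used as an alternative. The submitters' processing notes name Feature Extraction 9.1 and limma, and the file headers name Feature Extraction 10.7.3.1. Mean spot signals were background corrected with normexp (offset 50), outlier and control spots removed, and quantile normalized with limma 3.58.1 in R 4.3.3. The brightest probe among those well above background on at least 1 array stood for a gene. No test was run, since each group had 1 array, and the number of arrays limits the precision. The thresholds of 1 and 7.5 were taken from the study's methods, which used them for another comparison and together with a p-value, which was not used here. Recovery of the size and direction of differences was tested on simulated data, and the counts past a threshold were not. Values were given for Chd4, Chd5, Smarca4, genes past 1, the 8 largest differences per direction and the members of paralog sets, and of partner lists for genes past 0.5. The members and lists were chosen with earlier results of these data known. Probe positions are those of the array files (mm9). Of 46 probe accessions, 44 matched RefSeq under the same symbol.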

Additional observations from a re-analysis of the deposited data

How the results depend on the processing

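Of the 46 remodeler genes, 33 kept the sign of their difference under all 13 alternatives and 13 did not under at least 1. Requiring detection on both arrays and dropping the detection filter gave the main value for every remodeler, so these alternatives checked no sign. This holds for every count of alternatives given above. The mean over probes could not move the 25 genes with 1 detected probe. The number of genes with a difference above 0 lay between 30 and 42, the latter with spike-in scaling. The share of all genes above 0 was counted in the main setting only. The median difference, 0.17 in the main setting, was 0.37 with median scaling and 0.71 with spike-in scaling. The count higher past 1, 2 in the main setting, was 4 with median scaling, 10 with spike-in scaling and 8 at a threshold of 0.5. For the scalings, no share of all genes past 1 was counted beside it. The count lower past 1, 1 in the main setting, was 0 with normexp at offset 0, without background correction, with the processed signal, with the 75th percentile, with median scaling, with cyclic loess and with spike-in scaling, and 4 at a threshold of 0.5. Under the first 6 of these 7 settings the mean level of Arid3c fell below 7.5, at 6.75 to 7.47, and with spike-in scaling its difference was -0.83. Dim genes are limited by signal over background, and the offset of 50 understates their differences. No paired analysis was possible because neither group had a second array, so no array could be left out either.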

Other observations

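Markers of other cell types also differed between the arrays. The mesendoderm genes T and Mixl1 were higher in ELA-EpiSC by 2.48 and 1.97 on the log2 scale, while Gsc differed by 0.54 and Eomes by 0.32. The visceral endoderm gene Gata4 was lower in ELA-EpiSC, with a difference of -2.39, and Sox17 differed by -0.93. Ttr and Apoa1 were well above background in EpiSC and not in ELA-EpiSC, and Afp, at levels of 6.26 and 6.47, differed by 0.21. Of the naive-state genes, Tbx3 and Nr0b1 were lower in ELA-EpiSC, with differences of -3.75 and -2.74, while Zfp42 differed by -0.22, Klf4 by 0.16 and Esrrb by 0.43. Of the cardiac and muscle genes, Actc1 was higher by 2.08, Tnnt2 differed by 0.36, Myh6 by -0.02, and Myl7 was well above background only in EpiSC. The part of such cells in the remodeler differences was not tested.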
